A study of Drosophila melanogaster with 6 samples.

Results

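Germ plasm and RNA localisation genes were followed on expression arrays of whole Drosophila melanogaster embryos in which the transcription factor Sage was made outside its normal place, the salivary gland. The genes were osk, nos, pgc, gcl, bcd, swa, exu, stau, orb and cup, and a probe set was taken where the platform annotation named exactly 1 of them. This gave 12 probe sets, of 18769 tested, for 8 of the 10 listed genes. No probe set named pgc or cup alone, so these were not analysed here. The annotation gives nos under the symbol nanos, and the separate gene Nos, for nitric oxide synthase, was not used.

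The Sage group (3 arrays) carried the tub-Gal4 driver and a UAS-Sage transgene, so that Sage was made wherever the tubulin promoter of the driver is active. The control group (3 arrays) was the tub-Gal4 strain, so both groups carried the driver. Embryos of both groups were of stages 11 to 16, aged at 25 C and sorted by machine. Whether the samples of a group were collected separately is not stated in the labels. The p-values therefore cover only the spread among these 6 samples, and that spread could be technical. Values are log2 signals per probe set, and 3 arrays per group limit the precision.

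The anterior and posterior poles of the fly egg are set up by RNAs that the mother loads into the oocyte and ties to its ends. bcd RNA is held at the anterior pole and encodes a homeodomain morphogen of the head and thorax. osk RNA is held at the posterior pole, where its protein builds the germ plasm, the cytoplasm that makes the pole cells, which become the germ line. Many such maternal RNAs are broken down early in embryogenesis.

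The sage probe set had log2 signals of 12.39, 12.53 and 12.50 on the Sage arrays and of 7.38, 7.50 and 7.66 on the control arrays, so the groups matched their labels. The arrays were not equally alike. Pearson's r across the 18769 probe sets (features that are not independent of each other) was 0.989 to 0.996 between Sage arrays and 0.938 to 0.987 between control arrays. Control replicate 3 stood apart, with r of 0.895 to 0.904 to the Sage arrays, and control replicate 1 was closest to them (0.962 to 0.972). Signals of added and quality-control RNAs also differed between the groups without overlap. BioB, a hybridisation control, averaged 9.12 on Sage arrays and 7.73 on control arrays, and Dap, a labelling control, 5.43 on Sage arrays and 6.09 on control arrays. The 3′ over 5′ log2 ratio of actin averaged 2.72 on Sage arrays and 1.72 on control arrays, and that of GAPDH 2.03 on Sage arrays and 1.51 on control arrays. Handling and genotype therefore cannot be told apart for any gene below, and in whole embryos fewer cells with a transcript cannot be told apart from less transcript per cell.

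Among the 12 probe sets the largest falls were in swa and in 1 of the 2 bcd probe sets. Of the 9 maternal egg genes read below, 6 passed as lower and 3 did not pass. The median log2 difference of the 9, Sage minus control, was -3.95. swa and the brighter bcd probe set were lower with Sage, and the other 10 probe sets did not pass the test (limma across all probe sets, Benjamini-Hochberg adjusted p under 0.05). Of all probe sets, 9.45% passed as lower and 4.25% as higher, against 2 and 0 of the 12. The median log2 difference of the 12, Sage minus control, was -0.51, against 0.00032 over all probe sets, and 11 of the 12 differences were negative. An exact permutation test of a single probe set cannot go below p = 0.1 with 3 arrays against 3.

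swa, or swallow, encodes a protein that keeps bcd RNA at the anterior pole of the oocyte. Its log2 signal was 5.75, 4.90 and 5.68 on the Sage arrays and 9.75, 9.48 and 10.54 on the control arrays. The groups were far apart, with Sage replicate 2 lowest and control replicate 3 highest. The mean was 5.45 ± 0.47 with Sage and 9.93 ± 0.55 in the controls (SD, n = 3 each). The log2 difference was -4.48 (SE 0.35, adjusted p = 0.00139 by limma), a 22.3-fold lower signal. It passed in all 6 fits that left out 1 array, with differences of -4.70 to -4.17.

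The brighter bcd probe set (1631463_a_at) had log2 signals of 6.67, 5.10 and 6.70 on the Sage arrays and of 9.78, 9.69 and 10.34 on the control arrays. As for swa, the groups did not overlap and Sage replicate 2 was the lowest array. Its mean was 6.16 ± 0.91 with Sage and 9.94 ± 0.35 in the controls (SD, n = 3 each), and the log2 difference was -3.78 (SE 0.47, adjusted p = 0.00503 by limma). Leaving out 1 array gave -4.05 to -3.25, past the threshold each time. The dimmer bcd probe set (1626502_s_at) had 5.23, 5.39 and 5.53 with Sage and 5.70, 5.67 and 5.98 in the controls. Its groups did not overlap either, but the difference of -0.40 (SE 0.13) did not pass (adjusted p = 0.105 by limma). Signals of this probe set lay near the array medians of 5.56 to 5.74. exu, or exuperantia, which acts before swa in placing bcd RNA, did not pass on either probe set. Its probe set 1639059_s_at had 5.56, 5.58 and 5.65 with Sage and 5.86, 5.74 and 5.48 in the controls, with overlap. Its other probe set (1633180_at) had 4.54, 4.54 and 4.55 with Sage and 4.83, 4.75 and 5.50 in the controls. This one did not overlap, and its difference of -0.48 had a 95% interval of -0.99 to 0.02.

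**Figure D1:**
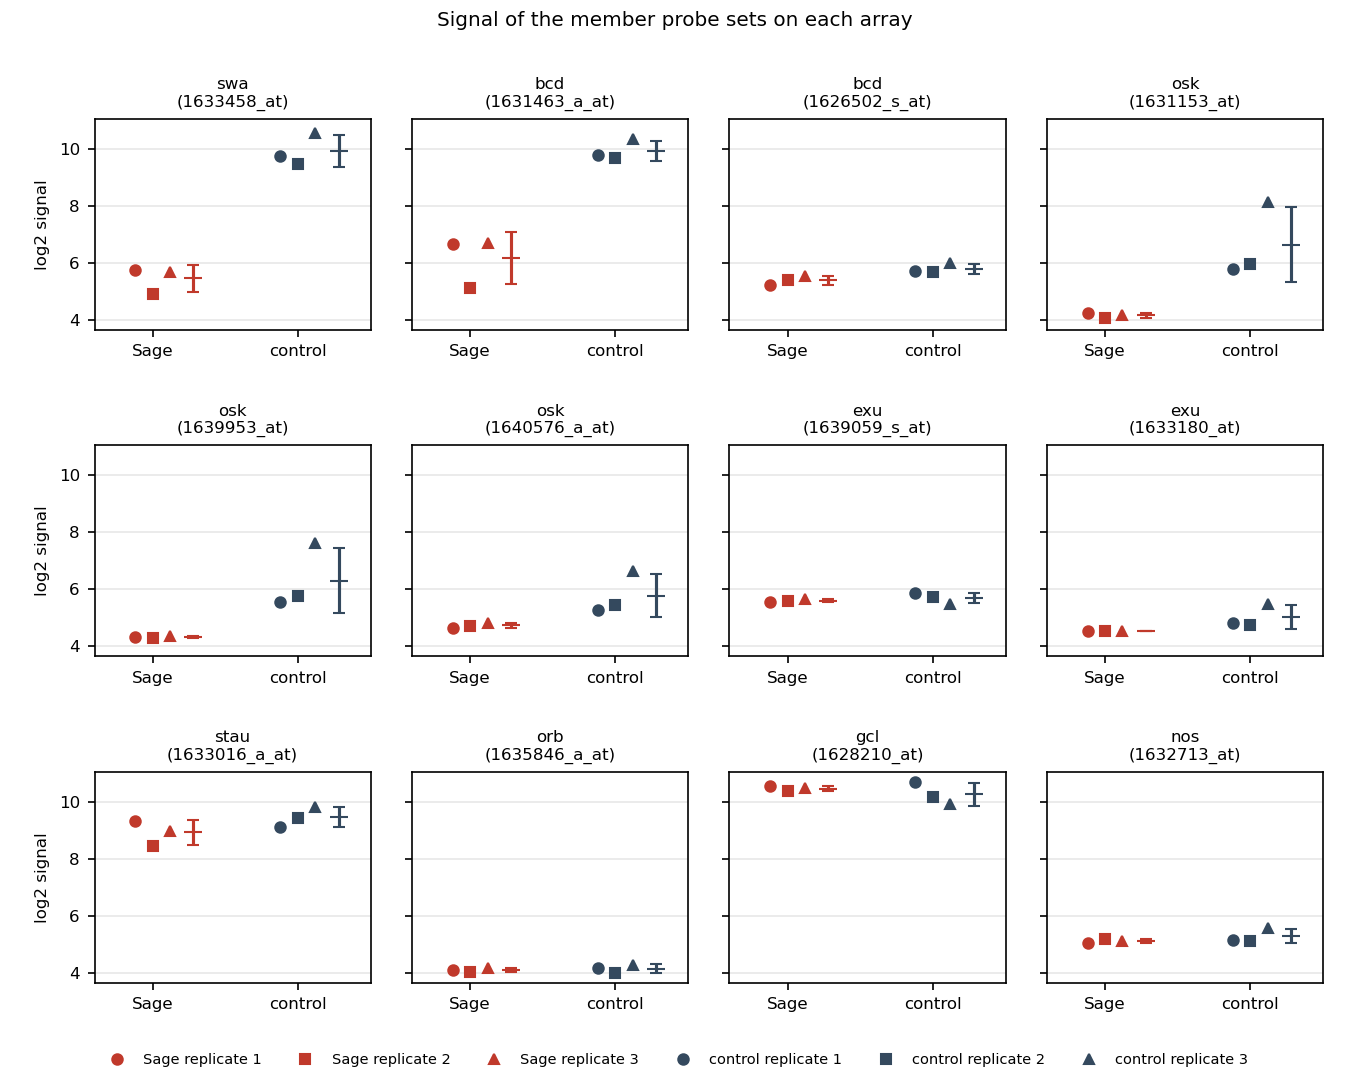
Log2 signal of each of the 12 probe sets (1 panel each, same vertical axis) on the Sage arrays (red, left) and the control arrays (blue, right). Points are single arrays, with the shape giving the replicate, and the bar beside them is the mean ± SD of 3 arrays. The Sage and control arrays of swa and of bcd (1631463_a_at) do not overlap, with differences of means of -4.48 and -3.78, and all 3 osk probe sets are highest on control replicate 3.

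osk, or oskar, whose protein starts germ plasm assembly, was dim with Sage and uneven among the controls. Probe sets of a gene were ranked by their mean over the 6 arrays, and for osk the control signals set that order. Its brightest probe set (1631153_at) had log2 signals of 4.23, 4.05 and 4.17 with Sage and of 5.78, 5.95 and 8.14 in the controls. The probe set 1639953_at had 4.34, 4.30 and 4.35 with Sage and 5.54, 5.76 and 7.62 in the controls. The probe set 1640576_a_at had 4.65, 4.73 and 4.83 with Sage and 5.26, 5.44 and 6.64 in the controls. On all 3 probe sets the groups did not overlap and control replicate 3 stood above the other 2 controls. The log2 differences were -2.48 (SE 0.63), -1.98 (SE 0.55) and -1.04 (SE 0.36), with adjusted p = 0.0549, 0.0704 and 0.132 by limma. None passed. Without control replicate 3 all 3 passed, with smaller differences of -1.72, -1.32 and -0.61 (adjusted p = 0.00067, 0.001 and 0.0135 by limma). The SD of the brightest probe set over the 3 controls was 1.32. Without control replicate 1, 1631153_at and 1639953_at passed (adjusted p = 0.0339 and 0.0379 by limma). The lowest 25% of signals on an array lay below 4.69 to 4.76. The Sage signals of osk 1631153_at and 1639953_at fell in that range, where differences are compressed.

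The other germ plasm and localisation genes gave no call. nos, a translational repressor of the posterior pole and the pole cells, had log2 signals of 5.05, 5.18 and 5.11 with Sage and of 5.17, 5.11 and 5.58 in the controls. The groups overlapped, and the difference of -0.17 had a 95% interval of -0.52 to 0.17 (adjusted p = 0.513 by limma). gcl, or germ cell-less, which is needed for pole cells to form, was bright on every array. It had 10.56, 10.38 and 10.49 with Sage and 10.72, 10.17 and 9.93 in the controls, where control replicate 1 was above and control replicates 2 and 3 were below every Sage array. Its difference of 0.20 (95% interval -0.31 to 0.71) was the only positive one of the 12.

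stau, or Staufen, a double-stranded RNA binding protein that carries osk and bcd RNA, had log2 signals of 9.34, 8.47 and 9.001 with Sage and of 9.14, 9.46 and 9.82 in the controls. The groups overlapped, and the difference of -0.54 had a 95% interval of -1.20 to 0.13 (adjusted p = 0.279 by limma). orb, an RNA binding protein of the oocyte that activates translation of localised RNAs, had 4.09, 4.04 and 4.17 with Sage and 4.17, 3.99 and 4.29 in the controls. These signals were in the lowest 25% of each array in both groups, so the difference of -0.046 (95% interval -0.30 to 0.21) covers only what such a dim probe set can show.

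The lowest control array was above the highest Sage array for 7 of the 12 probe sets, against 18.1% of all probe sets. These were every probe set of osk, bcd and swa, and exu 1633180_at. Genes with several probe sets were thus counted repeatedly, here and in the counts below. None of the 12 had all Sage arrays above the controls, against 16.6% of all probe sets, and 5 overlapped, against 65.3%. The spread was wider among controls, with a median SD of 0.0887 on the Sage arrays and 0.377 on the control arrays over the 12 probe sets, against 0.114 and 0.16 over all probe sets. Control replicate 3 was the highest control for 10 of the 12, and for 57.7% of all probe sets.

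Each control array was then set by itself against the mean of the 3 Sage arrays, with no test, since 1 array has no spread of its own. swa was 19.8-fold lower with Sage than in control replicate 1, 16.4-fold lower than in control replicate 2 and 34.2-fold lower than in control replicate 3. The brighter bcd probe set was 12.3-fold, 11.6-fold and 18.1-fold lower against the same arrays. The dimmer bcd probe set, which did not pass, was 1.24-fold, 1.22-fold and 1.52-fold lower against them. swa and the brighter bcd probe set were thus at least 11.6-fold lower with Sage whichever control was taken, and the dimmer bcd probe set was not. The brightest osk probe set behaved otherwise, at 3.10-fold and 3.48-fold lower against control replicates 1 and 2 and 16.0-fold lower against control replicate 3. gcl changed sign between the controls, with Sage minus control at -0.24, 0.30 and 0.55.

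The Sage mean was over 1 log2 unit below control replicate 1 for 4 of the 12 probe sets, against 4.53% of all, and below control replicate 2 for 4, against 4.81%. Against control replicate 3 it was so for 5, against 9.94%. The probe sets were swa, the brighter bcd and the 2 brighter osk each time, joined by osk 1640576_a_at against control replicate 3. None was over 1 unit above any control. The median of the 12 was -0.30, -0.40 and -0.92 against control replicates 1, 2 and 3, and that of all probe sets 0.039, 0.019 and -0.072.

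**Figure D2:**
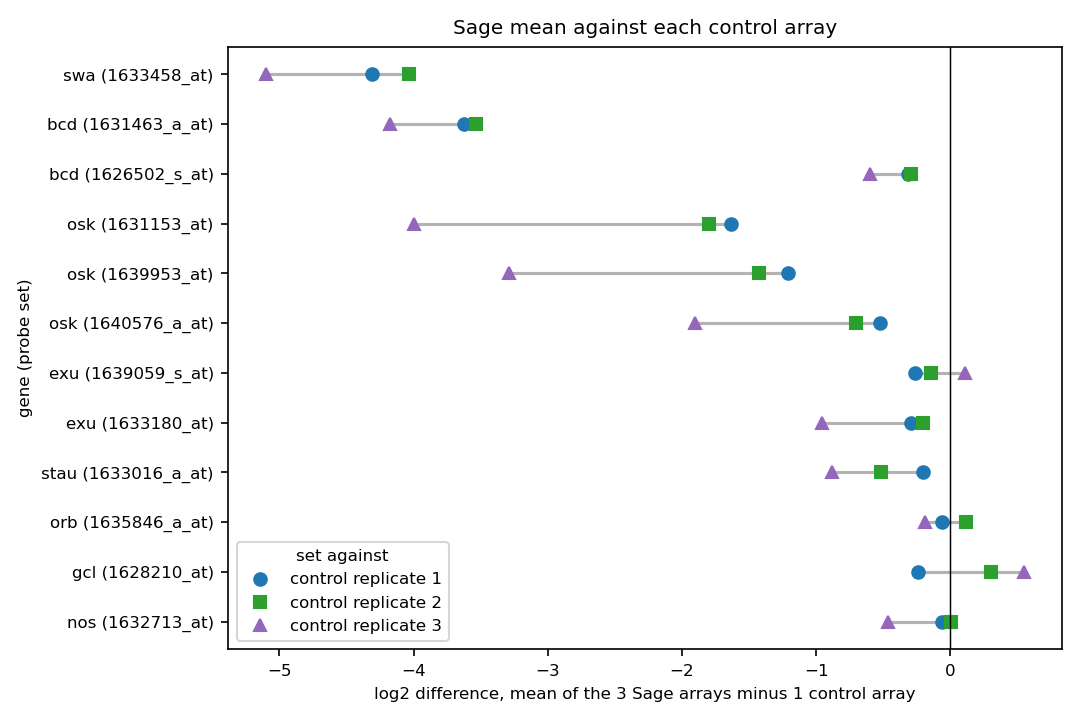
Log2 difference between the mean of the 3 Sage arrays and each single control array (horizontal axis, negative where Sage is lower) for the 12 probe sets. Circles, squares and triangles are control replicates 1, 2 and 3. swa lies between -5.10 and -4.03 and bcd (1631463_a_at) between -4.18 and -3.53, while osk (1631153_at) lies at -3.996 for control replicate 3 and at -1.63 and -1.80 for the others.

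Marker lists of what whole embryos can hold were read in the same arrays, and their part in the results above was not tested. Their counts stand against 12.2% lower and 5.6% higher over 11982 genes, each by its brightest probe set. Of 9 maternal egg genes, 6 were lower with Sage, 3 did not pass and none was higher. Those that did not pass were png, gnu and fs(1)N, with log2 differences of -0.040, -0.53 and -0.56. The summed linear signal of the 9 was 344 to 468 on Sage arrays and 4144 to 7688 on control arrays. The median of the 9 against control replicates 1, 2 and 3 was -3.73, -3.63 and -4.33, below 0 against every control. Of 8 cuticle genes of the late embryo, 2 were higher with Sage. Their summed signal was 30547 to 38594 on Sage arrays, and 29246, 8334 and 733 on control replicates 1, 2 and 3. Their median was 0.10, 2.24 and 5.29 against those controls. Ccp84Ae and TwdlN, the 2 that were higher, had Sage means of 10.22 and 11.53, against 8.25 and 9.27 on control replicate 1.

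Of 9 genes switched on in the blastoderm embryo, slam and kuk were lower with Sage and 7 did not pass. Their summed signal was 2620 to 3125 on Sage arrays and 6744 to 10568 on control arrays. Most of it came from kuk, with log2 signals of 11.20 to 11.48 with Sage and 12.59 to 13.18 in the controls. The median of the 9 genes was -0.21, -0.11 and -1.47 against control replicates 1, 2 and 3. Among them halo, chosen after its values were seen, had log2 signals of 5.18, 5.08 and 5.05 with Sage and of 5.28, 5.21 and 8.66 in the controls. Control replicate 3 was the highest control for halo, as for osk and for 57.7% of all probe sets. On control replicates 1 and 2 halo lay near its Sage signals, unlike osk. Of 13 follicle cell genes for the eggshell, Vm26Aa was higher with Sage (log2 difference 0.63) and the others did not pass, with a summed signal of 594 to 699 on Sage arrays and 533 to 584 on control arrays.

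Of 8 germline genes, which include nos and gcl, only bam was lower with Sage and none was higher. The summed signal was 2063 to 2256 on Sage arrays and 2324 to 2612 on control arrays, and most of it came from gcl and ovo. vas, a helicase that defines the germ line, had log2 signals of 4.62, 4.72 and 4.75 with Sage and of 4.85, 4.94 and 5.20 in the controls, below the array medians throughout. bam, a germline differentiation factor, had 4.55, 4.33 and 4.44 with Sage and 7.65, 7.34 and 8.19 in the controls.

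**Figure D3:**
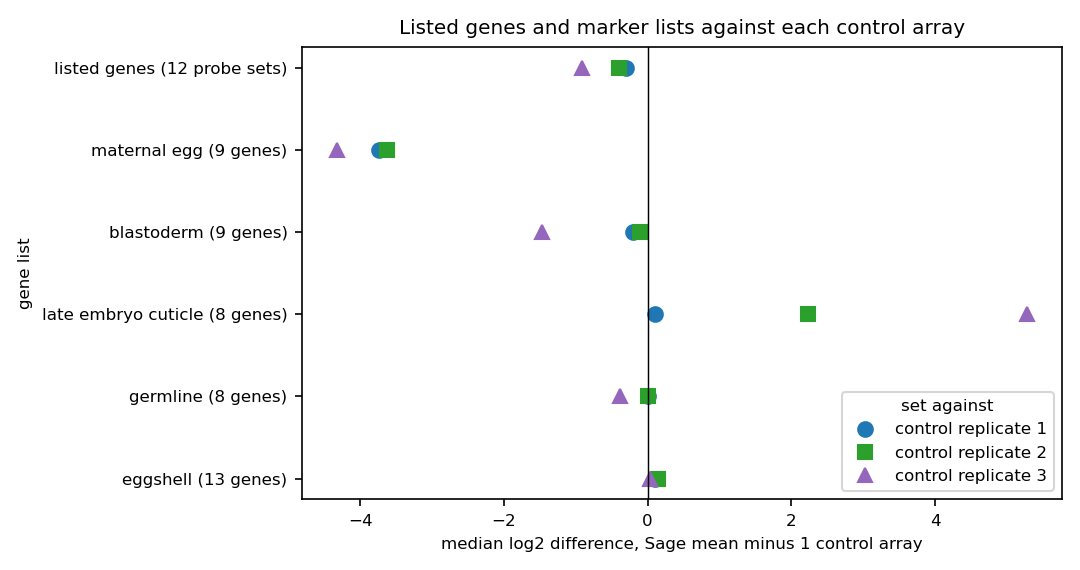
Median log2 difference, Sage mean minus 1 control array, for the 12 probe sets of the germ plasm and localisation genes and for 5 marker lists (brightest probe set per gene). Symbols give the control replicate. The maternal egg list is between -4.33 and -3.63 against every control, and the late embryo cuticle list ranges between 0.10 and 5.29.

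Genes that work with this group were read from lists of partners, 41 measured of 48 listed, by the brightest probe set of each gene. With Sage 15 were lower and none was higher, against 12.2% lower and 5.6% higher over the 11982 genes that some probe set named alone. Some of these proteins work in many embryonic cells besides the egg.

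Of 15 measured germ plasm partners, 5 were lower with Sage and 10 did not pass, with a median log2 difference of -0.37. csul, an arginine methyltransferase needed for pole plasm, had log2 signals of 7.62, 7.26 and 7.58 with Sage and of 9.02, 9.03 and 9.72 in the controls, 3.41-fold lower with Sage (adjusted p = 0.00531 by limma). aub, a Piwi protein held in the germ plasm, had 6.30, 6.21 and 6.26 with Sage and 7.72, 7.64 and 8.57 in the controls, 3.297-fold lower (adjusted p = 0.0087 by limma). In both, every Sage array was below every control array. The other 3 were gus, whose product binds Vasa (log2 difference -0.88), enc (-0.51) and milt, a kinesin adaptor (-0.37). enc passed in 2 and milt in 1 of the 6 fits without 1 array. A second milt probe set (1623807_a_at) gave -1.54 and another, dim one -0.014. tud, a scaffold of the polar granules, had 10.50, 8.23 and 10.08 with Sage and 9.84, 10.15 and 9.91 in the controls, so that 1 Sage array stood well below the rest.

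Of 16 measured genes of RNA localisation and of translational control of osk or nos, 8 were lower with Sage and 8 did not pass, with a median of -0.65. smg, or Smaug, which represses nos RNA and marks maternal RNAs for decay, had log2 signals of 8.88, 7.88 and 9.08 with Sage and of 12.04, 11.92 and 12.26 in the controls. It was 11.0-fold lower with Sage (adjusted p = 0.00219 by limma). heph, a polypyrimidine tract binding protein that represses osk translation, had 8.16, 7.16 and 8.27 with Sage and 10.22, 10.15 and 10.36 in the controls, 5.20-fold lower (adjusted p = 0.0055 by limma). brat and pum, which act with Nanos on hb RNA and were chosen after their values were seen, had log2 differences of -2.32 and -1.84. A second pum probe set gave -0.16 and did not pass. All 4 passed without any 1 array. The other 4 that were lower, Hrb27C (-1.21), me31B (-1.16), otu (-0.72) and BicD (-0.58), lost the call in 2 to 4 of those 6 fits. egl, the dynein adaptor partner of BicD, had a difference of 0.48 and did not pass (adjusted p = 0.0805 by limma).

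Of 10 measured targets of Bicoid or Nanos, CycB and cad were lower with Sage and 8 did not pass, with a median of -0.40. CycB, a mitotic cyclin whose RNA Nanos represses in pole cells, had 10.53, 10.18 and 10.55 with Sage and 12.94, 12.88 and 13.17 in the controls. cad, or caudal, whose translation Bicoid represses, had 8.45, 8.42 and 8.66 with Sage and 9.46, 9.48 and 9.51 in the controls, 1.96-fold lower (adjusted p = 0.0023 by limma). Both passed without any 1 array. hb, activated by Bicoid and repressed by Nanos, had 6.87, 5.59 and 6.68 with Sage and 7.38, 7.51 and 8.89 in the controls. Its groups did not overlap, but the difference of -1.55 did not pass (adjusted p = 0.118 by limma). Against control replicates 1, 2 and 3 the median of the 10 was 0.23, -0.52 and -0.97, so its sign depended on the control array taken.

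**Figure D4:**
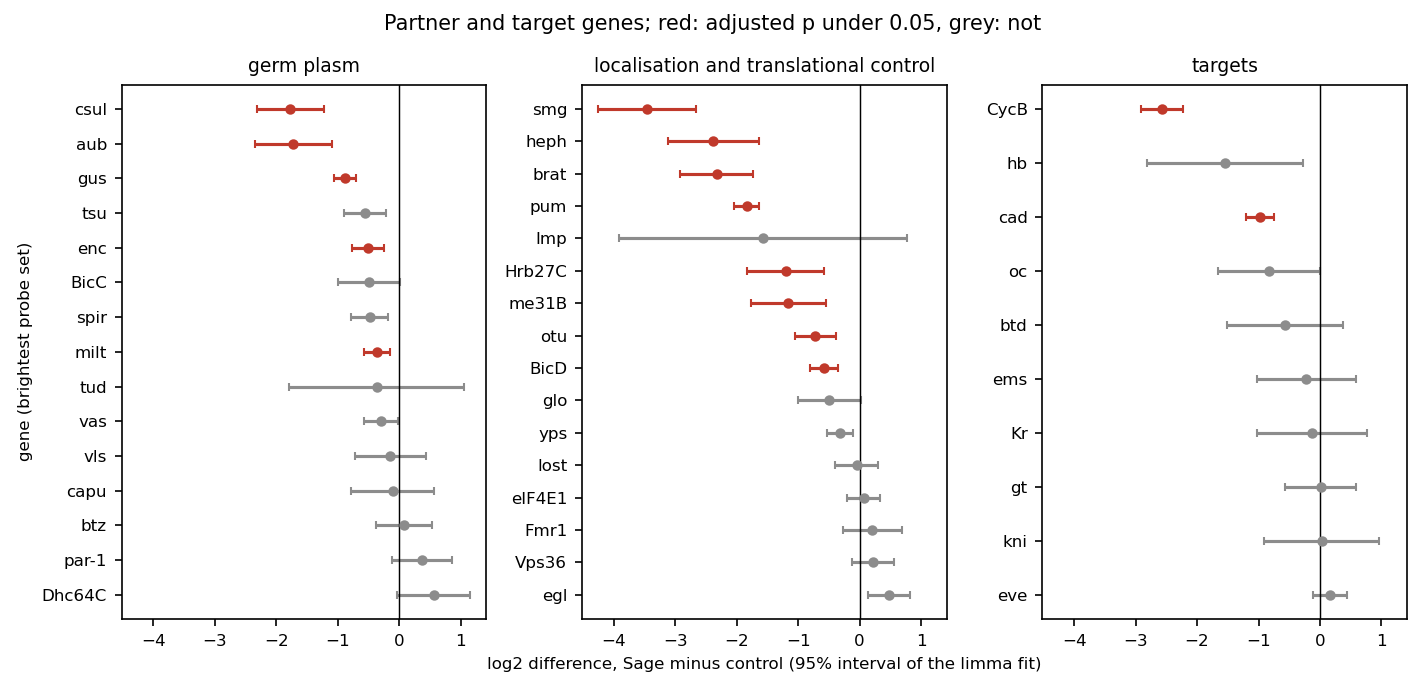
Log2 difference, Sage minus control, with its 95% interval for the 41 partner and target genes in 3 lists. Red points passed at an adjusted p under 0.05 and grey points did not. All 15 red points are below 0, down to -3.46 for smg.

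The genes whose profiles over the 6 arrays were closest to those of swa and bcd were found by the root mean square distance between profiles centred on their own means, with no statement on shared control. For bcd these were tef, needed for pairing of chromosomes in male meiosis, at a distance of 0.114 log2 units, and a probe set of tkv, a BMP receptor, at 0.221. For swa they were plu, a gene of the maternal egg list above, at 0.202, and rpk, an ion channel gene, at 0.234. tef had log2 signals of 6.86, 5.05 and 6.54 with Sage and of 9.75, 9.60 and 10.21 in the controls, with Sage replicate 2 lowest as for bcd. A second tkv probe set, brighter with Sage (mean 10.40 against 6.37), had a smaller difference of -0.57, against -4.10 for the one named. It also passed as lower (adjusted p = 0.0359 by limma), without overlap.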

How the data were processed

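RNA of 3 Sage and 3 control samples was measured on Affymetrix 3′ expression arrays, labelled by in vitro transcription per the labels' protocols. The authors deposited log2 signals per probe set. Per the submitters' processing notes, RMA and Partek were used, with no version stated. RMA equalises the arrays, so a change in total RNA cannot be seen, and it compresses dim differences. No genome build is given in the sources, so no coordinates were used, and sequences were not used here.

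After removal of 183 quality-control features from the 18952 on the array, 18769 probe sets were tested with limma 3.58.1 (lmFit and eBayes, R 4.3.3), on the two-sided contrast of Sage minus control, without covariate or filter, with Benjamini-Hochberg adjustment at 0.05. The procedure was tested on simulated data. Symbols were updated through Entrez identifiers to RefSeq Release 6. Figures were drawn with matplotlib 3.10.9.

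The genes, the partner and marker lists and the tests were chosen with earlier results of these data known. The text names all probe sets of the 8 measured genes, up to 2 largest falls and rises per partner list, the 2 closest profiles of each called gene, all called genes of lists with 5 or fewer, and genes said to be chosen after their values were seen. The called partners Hrb27C, me31B, otu and BicD, and tud, egl, hb, vas, bam, slam, kuk, Vm26Aa, Ccp84Ae and TwdlN, were also named after their values were seen.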

Additional observations from a re-analysis of the deposited data

How the results depend on the processing

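The 2 calls, swa and the brighter bcd probe set, passed under every alternative run: each array left out, a replicate block, a filter on a mean log2 signal above 5, median centring, quantile normalization, a trended and robust prior, array weights and no moderation. Probe sets of the listed genes called lower numbered 2 to 5 with 1 array left out (4 without control replicate 1, 5 without control replicate 3). Of all 18769 probe sets, those fits called 934 to 2035 lower (2035 without control replicate 1, 1955 without control replicate 3). With array weights 8 were lower and 2 higher (gcl and orb), against 4922 lower and 4869 higher of all 18769 probe sets. Those weights did not converge and gave control replicate 2 a weight of 32.0, against 0.128 to 2.79 for the others. orb turned sign there (log2 difference 0.15) and ranged between -0.13 and 0.026 with 1 array left out, positive only without control replicate 3. osk 1631153_at also passed with median centring (adjusted p = 0.0458 by limma) and the dim filter (adjusted p = 0.0398 by limma). That filter kept it only through its control signals (mean 6.62, against 4.15 with Sage), so its pass there gives no support. With 1 probe set per gene, 3 were lower, the third being osk 1631153_at. This probe set was the brightest of osk only through the controls (Sage mean 4.15, against 4.33 and 4.74 for the others), so its pass there gives no support. Over all 11982 genes 12.2% were lower by their brightest probe set, with the adjustment over all probe sets. Lower partner genes numbered 9 to 18 with 1 array left out (9 without Sage replicate 3 or control replicate 2), 26 with array weights and 9 without moderation, against 15. Without moderation 1026 of all probe sets were lower. 1 partner gene was higher with quantile normalization and 1 with array weights, against 914 and 4869 of all probe sets. Other scalings of the medians against each control array moved them by less than the spread between controls. Same-numbered Sage and control arrays had correlations of their deviations of -0.126, -0.0681 and -0.248, and no Sage array correlated best with its own number. These values gave no sign that the replicate numbers pair the samples, but 3 arrays per group cannot settle it. With the replicate block, 2 probe sets of the listed genes and 11 partner genes were lower. Over all probe sets the block gave 1057 lower and 341 higher, against 1774 and 797. Signals in the lowest 25% of an array may understate a difference. These included the Sage signals of the 2 brighter osk probe sets, exu 1633180_at, otu and bam, and all signals of orb.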
